A study of Arabidopsis thaliana with 9 samples.

Results

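The LHCB1 and LHCB2 genes of Arabidopsis thaliana encode the major light-harvesting chlorophyll a/b-binding proteins of photosystem II. The 8 copies were taken by locus, 5 of LHCB1 (AT1G29920, AT1G29910, AT1G29930, AT2G34430 and AT2G34420) and 3 of LHCB2 (AT2G05100, AT2G05070 and AT3G27690), out of 33602 targets in the deposited tables. They were chosen with results of these same libraries known, so their levels and differences between groups are given as a description and carry no test of their own. Leaf RNA was sequenced from plants 4 to 5 weeks old in 3 groups of 3 libraries. The ddm1 group was homozygous for a ddm1 mutation and in its 2nd generation, the F1 group came from a cross of Col-0 with ddm1 and carried 1 mutant and 1 functional copy of DDM1 (DDM1/ddm1), and Col-0 was the wild type. DDM1 is a chromatin remodelling ATPase that keeps transposons methylated and silent, and the libraries were made to compare transposon expression between these plants. The labels call the 3 libraries of each group independent biological replicates. The sources used here do not say which ddm1 allele it was, how many plants went into a library, how they were batched for growth or at what hour they were harvested.

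Light-harvesting complex II is a trimer of LHCB1, LHCB2 and LHCB3 proteins that binds chlorophylls and carotenoids and passes light energy to photosystem II. The proteins are made in the cytosol, imported into the chloroplast and inserted into the thylakoid membrane. Part of the pool is phosphorylated and moves to photosystem I when light conditions change, in the process called state transitions, for which phosphorylation of LHCB2 is needed. LHCB genes are among the most abundant nuclear transcripts of green leaves. They are known to be induced by light and to follow the circadian clock, with the MYB factor CCA1 first described as a protein that binds an LHCB1 promoter.

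The copies lie close together in the genome. Positions follow RefSeq TAIR10.1, in which nuclear positions equal those of TAIR10. On chromosome 1, LHCB1.2 (AT1G29910, also called CAB3) lies at chr1:10472280-10473502 on the minus strand. LHCB1.1 (AT1G29920, CAB2) follows 1153 bases further on the same strand, at chr1:10474656-10475969. LHCB1.3 (AT1G29930, CAB1) is divergent from LHCB1.1 across 1915 bases and lies on the plus strand at chr1:10477885-10479114. On chromosome 2, LHCB1.5 (AT2G34420, minus strand, chr2:14522524-14523568) and LHCB1.4 (AT2G34430, plus strand, chr2:14524607-14525918) are divergent across 1038 bases. LHCB2.2 (AT2G05070, chr2:1799234-1800472) and LHCB2.1 (AT2G05100, chr2:1822990-1824480) are both on the minus strand and 22517 bases apart. LHCB2.3 (AT3G27690, plus strand) stands alone on chromosome 3 at chr3:10255906-10257489. None of the LHCB1 copies has an intron, and each LHCB2 copy has 1.

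The LHCB1 copies on chromosome 1 encode almost the same protein. LHCB1.1 and LHCB1.2 proteins are identical although their coding sequences differ at 35 bases, and LHCB1.3 differs from both at 1 residue. LHCB2.1 and LHCB2.2 differ at 6 residues and at 27 coding bases (96.6% identity). LHCB2.3 is 95.5% identical to LHCB2.1 in protein and 85.5% in coding sequence. Between an LHCB1 and an LHCB2 copy the proteins are 74.1% to 76.8% identical.

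Reads of 50 bases cannot tell such copies apart everywhere, which bears on each copy's value. The longest coding stretch that LHCB1.1 and LHCB1.3 share base for base is 119 bases (coding positions 403 to 521), at chr1:10475372-10475490 on the minus strand and chr1:10478473-10478591 on the plus strand, and a read from inside it fits both copies:
LHCB1.1 and LHCB1.3: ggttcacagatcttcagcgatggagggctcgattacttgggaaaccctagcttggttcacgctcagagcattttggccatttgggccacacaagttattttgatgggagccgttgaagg
The longest stretch shared by LHCB2.1 and LHCB2.2 is 152 bases (coding positions 643 to 794, chr2:1823453-1823604 on the minus strand for LHCB2.1):
LHCB2.1 and LHCB2.2: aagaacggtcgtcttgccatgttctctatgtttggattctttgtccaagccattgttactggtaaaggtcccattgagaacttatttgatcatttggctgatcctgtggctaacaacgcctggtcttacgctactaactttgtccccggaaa

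Other stretches separate the copies. Of the 60-base windows of the coding sequence, the one with the most differences between LHCB1.1 and LHCB1.3 is shown for all 5 LHCB1 copies, at chr1:10475633-10475692 (LHCB1.1, minus strand), chr1:10472987-10473046 (LHCB1.2, minus), chr1:10478271-10478330 (LHCB1.3, plus), chr2:14525015-14525074 (LHCB1.4, plus) and chr2:14523260-14523319 (LHCB1.5, minus). Capitals mark bases that differ from LHCB1.3, of which there are 7 in LHCB1.1, 1 in LHCB1.2, 9 in LHCB1.4 and 6 in LHCB1.5:
LHCB1.1: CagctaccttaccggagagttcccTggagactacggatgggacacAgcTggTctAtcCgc
LHCB1.2: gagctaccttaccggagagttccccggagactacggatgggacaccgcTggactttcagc
LHCB1.3: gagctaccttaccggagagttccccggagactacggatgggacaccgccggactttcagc
LHCB1.4: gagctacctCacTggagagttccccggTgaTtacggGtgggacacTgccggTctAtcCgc
LHCB1.5: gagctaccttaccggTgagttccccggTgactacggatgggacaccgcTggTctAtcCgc
The same kind of window is shown for LHCB2, at chr2:1824211-1824270 (LHCB2.1, minus strand), chr2:1800209-1800268 (LHCB2.2, minus) and chr3:10256066-10256125 (LHCB2.3, plus). Bases were compared by position counted back from the stop codon, without gaps. LHCB2.3 has 801 coding bases against 798 in LHCB2.1, and part of its window is out of register with that of LHCB2.1. Its capitals therefore include bases that an alignment with a gap would match. Capitals mark the bases that differ from LHCB2.1 by position, 11 in LHCB2.2 and 25 in LHCB2.3:
LHCB2.1: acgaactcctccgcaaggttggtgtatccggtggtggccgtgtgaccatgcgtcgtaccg
LHCB2.2: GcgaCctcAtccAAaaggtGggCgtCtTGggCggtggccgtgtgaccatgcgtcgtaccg
LHCB2.3: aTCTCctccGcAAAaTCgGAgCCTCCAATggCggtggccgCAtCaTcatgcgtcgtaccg

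Words were looked up in the first RefSeq mRNA of each nuclear gene, in its own direction only. Counted over whole transcripts, all 50-base words of LHCB2.3 and 71.8% of those of LHCB2.2 occur in no other such mRNA. The opposite strand was not searched. There NRPA2 overlaps LHCB1.3, RWA3 and the noncoding gene AT2G08665 overlap LHCB1.5, and AT3G27700 overlaps LHCB2.3. AT2G08665 is not among the deposited targets. The share is 79.5% for LHCB1.1, 89.4% for LHCB1.2, 83.0% for LHCB1.3, 86.3% for LHCB1.4, 82.7% for LHCB1.5 and 77.3% for LHCB2.1. These shared words fall on the same family in every case. Words of 31 bases are shared more often, with unique shares of 60.6% (LHCB2.2) to 99.3% (LHCB2.3), and at that length LHCB1.1, LHCB1.2 and LHCB1.3 also share words with LHCB3. Except for LHCB1.5, the deposited targets are shorter than these transcripts (1101 against 1406 bases for LHCB2.1), so the shares are a guide only. Reads from the shared words were divided among copies by the authors' estimation, so that a copy's value is an estimate. The summed counts of a family do not depend on how reads were divided within it. The estimated counts of LHCB2.3 were whole numbers (within 0.0005) in all 3 F1 libraries but in 0 of the ddm1 and 0 of the Col-0 libraries, and those of LHCB1.1 were whole in none.

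**Figure D1:**
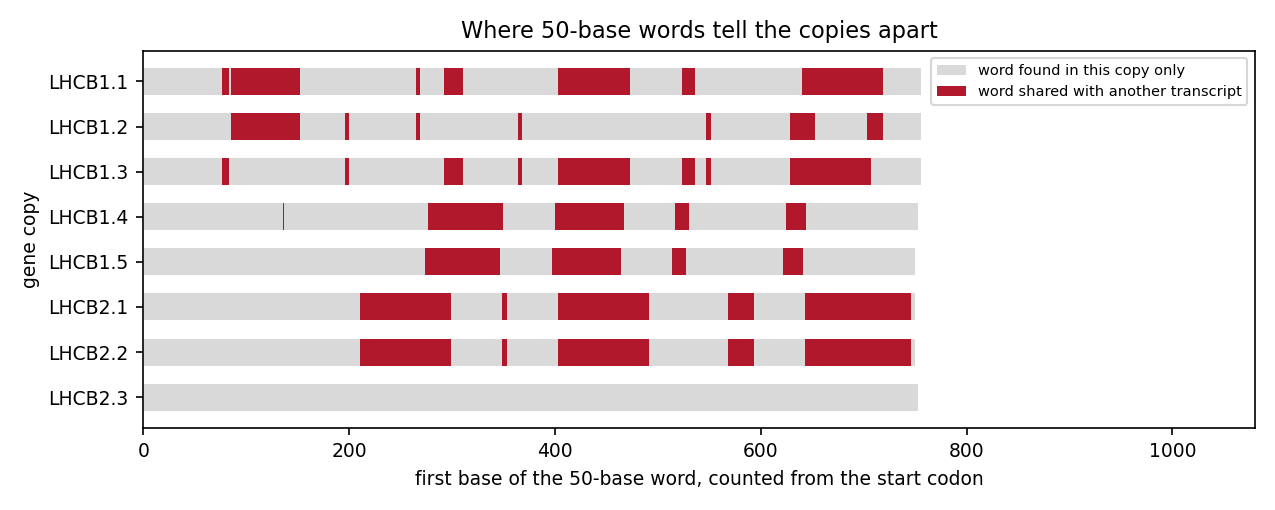
Map of the coding sequence of each copy. The x axis gives the first base of each 50-base word, counted in bases from the start codon. Red marks words that occur in another nuclear mRNA in its own direction, and grey marks the other words. LHCB2.3 has no shared word, while LHCB2.1 and LHCB2.2 share 308.

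Totals ran between 15996806 and 22425699 estimated counts per library, with 5212809 to 7574828 on nuclear loci. The share on organelle loci was 66.2% to 67.9% in ddm1, 70.6% to 72.8% in F1 and 64.7% to 68.9% in Col-0. DDM1 itself had 1, 2 and 2 counts in ddm1, 2, 0 and 8 in F1 and 3, 12 and 5 in Col-0, too few to check the genotypes. Root markers PLT1, RHD6 and WER and all 4 seed storage markers were at 0 counts in every library, and the leaf mesophyll markers were abundant in every library. The other root marker, SCR, was present in every library, at 6.3 to 13.3 CPM (scaled counts, defined below). None of the 5 flower and pollen markers was at 0 throughout. Of these, SEP1 was present in every library at 0.172 to 4.95 CPM, and VGD1 reached 7.61 CPM in Col-0 library 2. Every pair of replicate libraries differed by more than sampling noise.

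In F1 leaves the 3 LHCB2 copies and LHCB1.1 stood far below their level in ddm1 and Col-0 leaves, LHCB1.2 stood lower by a smaller factor, and LHCB1.3, LHCB1.4 and LHCB1.5 did not pass the test applied to all genes. In ddm1 leaves all 8 copies overlapped Col-0. Values per copy are in transcripts per 1000000 (TPM), which scale for target length, and log2 fold changes are from counts, with their standard error (SE). Because RNA of whole leaves was measured, fewer cells of a type and less RNA per cell cannot be told apart.

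Set against all genes, 5 of the 8 copies were called lower in F1 than in Col-0 by edgeR's quasi-likelihood test at an adjusted p under 0.05 and none higher, where 9.66% of the 18216 tested targets were called lower and 13.5% higher. Without F1 library 1, or without F1 library 2, 3 of 8 were called. The median log2 fold change was -3.74 for the copies, against 0.12 for all tested targets. Between ddm1 and F1, 4 of 8 were called higher in ddm1 and none lower, where 10.3% of targets were called higher and 6.21% lower, and the medians were 3.81 for the copies and 0.01 for all targets. Between ddm1 and Col-0, 0 of 8 were called by edgeR or by DESeq2, and 0 of 8 had an unadjusted p under 0.05. In that comparison edgeR called 7.37% of targets, 6.87% higher and 0.500% lower. In 6 of 8 copies, all but LHCB1.3 and LHCB1.4, every F1 library lay below every Col-0 library, where 17.3% of targets did so. In the same 6 every ddm1 library lay above every F1 library, where 20.9% of targets did so. No copy had ddm1 libraries all below or all above Col-0, where 5.60% and 12.4% of targets did so. Because each group enters 2 of these comparisons and the members were chosen on such values, nothing is read from the counts.

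LHCB1.3 was the most abundant copy in every group. It had 1648, 2484 and 5435 TPM in ddm1 leaves, 937, 1417 and 2971 TPM in F1 leaves and 2912, 5293 and 1910 TPM in Col-0 leaves. The groups overlapped in every pair. Its log2 fold change was 0.10 (SE 0.57) for ddm1 over Col-0, -0.67 (SE 0.57) for F1 over Col-0 and 0.77 (SE 0.57) for ddm1 over F1. With 1 library left out these ran over -1.19 to -0.35 for F1 over Col-0 and 0.07 to 1.29 for ddm1 over F1, where the lowest was without ddm1 library 3. By mean TPM it ranked 3 among 33323 nuclear targets in ddm1, 5 in F1 and 3 in Col-0.

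LHCB1.1, the divergent neighbour of LHCB1.3, had 490, 578 and 2146 TPM in ddm1 leaves, 15.9, 19.2 and 30.5 TPM in F1 leaves and 1194, 2204 and 755 TPM in Col-0 leaves. All F1 libraries lay below all ddm1 and Col-0 libraries. The log2 fold change was -5.71 (SE 0.75) for F1 over Col-0, 5.53 (SE 0.75) for ddm1 over F1 and -0.18 (SE 0.61) for ddm1 over Col-0. Its rank among nuclear targets was 14 in ddm1, 1665 in F1 and 8 in Col-0. LHCB1.1 shares 176 of its 1265 transcript words of 50 bases with LHCB1.3, which was abundant in F1, and how far the division of those reads set its low F1 value was not tested.

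LHCB1.2, which encodes the same protein as LHCB1.1, had 623, 694 and 1432 TPM in ddm1 leaves, 35.9, 82.6 and 170 TPM in F1 leaves and 479, 1275 and 358 TPM in Col-0 leaves. The F1 libraries again lay below all others. The log2 fold change was -2.61 (SE 0.65) for F1 over Col-0, 3.17 (SE 0.67) for ddm1 over F1 and 0.56 (SE 0.62) for ddm1 over Col-0. Without Col-0 library 2 the F1 value was -2.03, without F1 library 1 it was -2.22 and without F1 library 2 it was -2.60, and in each of these it no longer passed the threshold over all genes. Against ddm1 the same happened without F1 library 1 (2.79) and without F1 library 2 (3.16).

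The divergent copies on chromosome 2 were unlike each other. LHCB1.5 had 1270, 1628 and 1685 TPM in ddm1 leaves, 499, 840 and 1121 TPM in F1 leaves and 1336, 1544 and 1230 TPM in Col-0 leaves. The F1 libraries lay below the others by a small margin, with a log2 fold change of -0.47 (SE 0.31) for F1 over Col-0, 0.76 (SE 0.31) for ddm1 over F1 and 0.30 (SE 0.31) for ddm1 over Col-0. LHCB1.5 was also the copy that varied least within ddm1 and Col-0, by 1.51-fold between the lowest and highest ddm1 library and 1.21-fold between those of Col-0, in counts per 1000000 (CPM).

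LHCB1.4 was the copy that varied most within ddm1. It had 19.2, 58.3 and 829 TPM in ddm1 leaves, 49.9, 59.4 and 284 TPM in F1 leaves and 195, 792 and 154 TPM in Col-0 leaves. The ddm1 libraries spanned 49.3-fold in CPM, so that the ddm1 group covered the range of the other 2 groups. The log2 fold change was -1.31 (SE 1.26) for F1 over Col-0, 1.23 (SE 1.26) for ddm1 over F1 and -0.09 (SE 1.24) for ddm1 over Col-0. The value for ddm1 over F1 turned to -1.84 without ddm1 library 3.

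Of the LHCB2 copies, LHCB2.1 had 775, 936 and 1938 TPM in ddm1 leaves, 21.9, 31.3 and 58.8 TPM in F1 leaves and 1633, 2142 and 1141 TPM in Col-0 leaves. LHCB2.2 had 672, 902 and 1791 TPM in ddm1 leaves, 13.7, 16.9 and 79.3 TPM in F1 leaves and 1123, 1754 and 802 TPM in Col-0 leaves. In both copies every F1 library lay below every other library, and ddm1 overlapped Col-0. The log2 fold change of LHCB2.1 was -5.21 (SE 0.55) for F1 over Col-0, 4.94 (SE 0.54) for ddm1 over F1 and -0.27 (SE 0.46) for ddm1 over Col-0. For LHCB2.2 it was -4.87 (SE 0.75), 4.91 (SE 0.75) and 0.04 (SE 0.64) in the same 3 comparisons. These copies share 308 words of 50 bases with each other and none with LHCB1.

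LHCB2.3, the copy that shares no 50-base word with another mRNA in its own direction, was the least abundant in every group. It had 16.3, 22.6 and 229 TPM in ddm1 leaves, 1.36, 1.85 and 9.12 TPM in F1 leaves and 207, 548 and 45.5 TPM in Col-0 leaves. The F1 libraries lay below all others, while the ddm1 and Col-0 groups overlapped through ddm1 library 3 alone. The log2 fold change was -5.80 (SE 1.42) for F1 over Col-0, 4.45 (SE 1.33) for ddm1 over F1 and -1.35 (SE 1.16) for ddm1 over Col-0. The F1 value was -5.40 without F1 library 1 and -5.49 without F1 library 2, and in both it missed the threshold. Against F1, ddm1 missed it with all libraries, passed it by DESeq2 and ranged over 2.13 to 5.68 with 1 library left out.

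**Figure D2:**
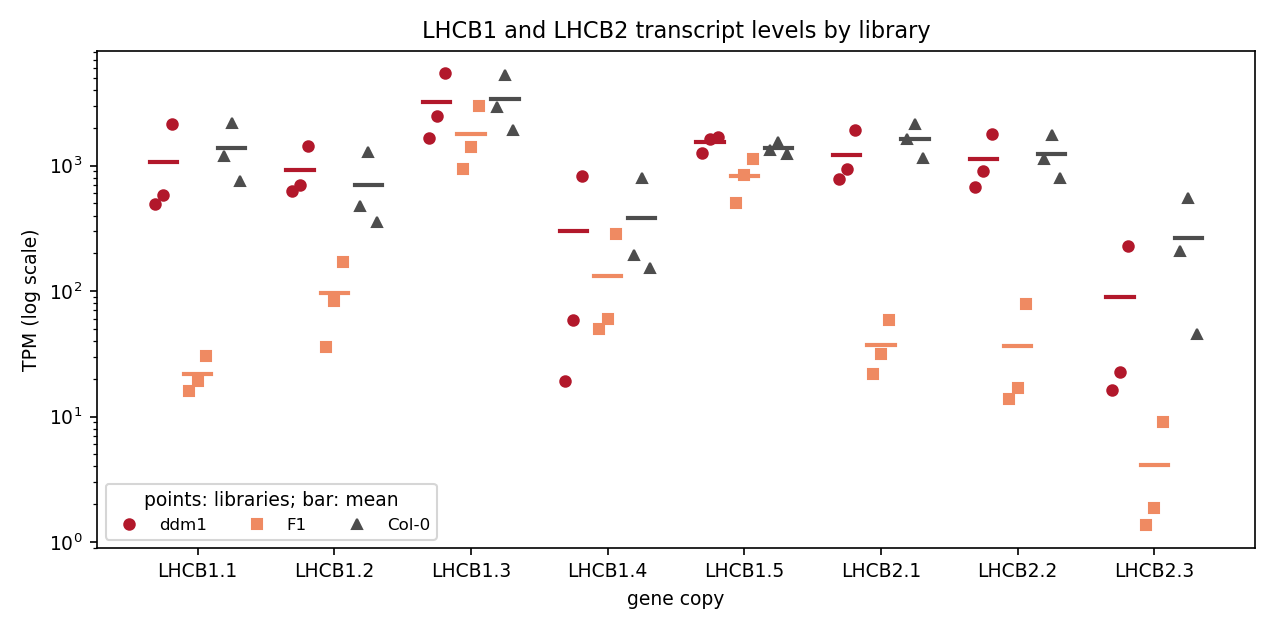
TPM (log axis) of the 8 copies in ddm1, F1 and Col-0 leaves. Points are single libraries, 3 per group, in the order of their numbers, and bars are group means. F1 libraries of LHCB1.1 lie between 15.9 and 30.5 TPM while those of LHCB1.3 lie between 937 and 2971 TPM.

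Summed over copies, LHCB2 transcripts reached 1463, 1860 and 3959 TPM in ddm1 leaves, 37.0, 50.0 and 147 TPM in F1 leaves and 2963, 4444 and 1989 TPM in Col-0 leaves. Summed counts do not depend on how reads were divided between the LHCB2 copies, while summed TPM do in part, because target lengths differ. From summed counts, the LHCB2 log2 fold change was -5.17 (SE 0.65) for F1 over Col-0 and 4.99 (SE 0.65) for ddm1 over F1. For ddm1 over Col-0 it was -0.19 (SE 0.55). LHCB1 transcripts summed to 4050, 5444 and 11527 TPM in ddm1 leaves, 1538, 2418 and 4576 TPM in F1 leaves and 6116, 11108 and 4407 TPM in Col-0 leaves. F1 library 3 thus lay above ddm1 library 1 and Col-0 library 3 in LHCB1, which in LHCB2 it did not. The log2 fold change of the LHCB1 sum was -1.20 (SE 0.53) for F1 over Col-0, 1.33 (SE 0.53) for ddm1 over F1 and 0.13 (SE 0.52) for ddm1 over Col-0, and none of these passed the threshold. With 1 library left out, the LHCB1 sum ran over -1.57 to -0.82 for F1 over Col-0 and 0.60 to 1.70 for ddm1 over F1, where the lowest was without ddm1 library 3.

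**Figure D3:**
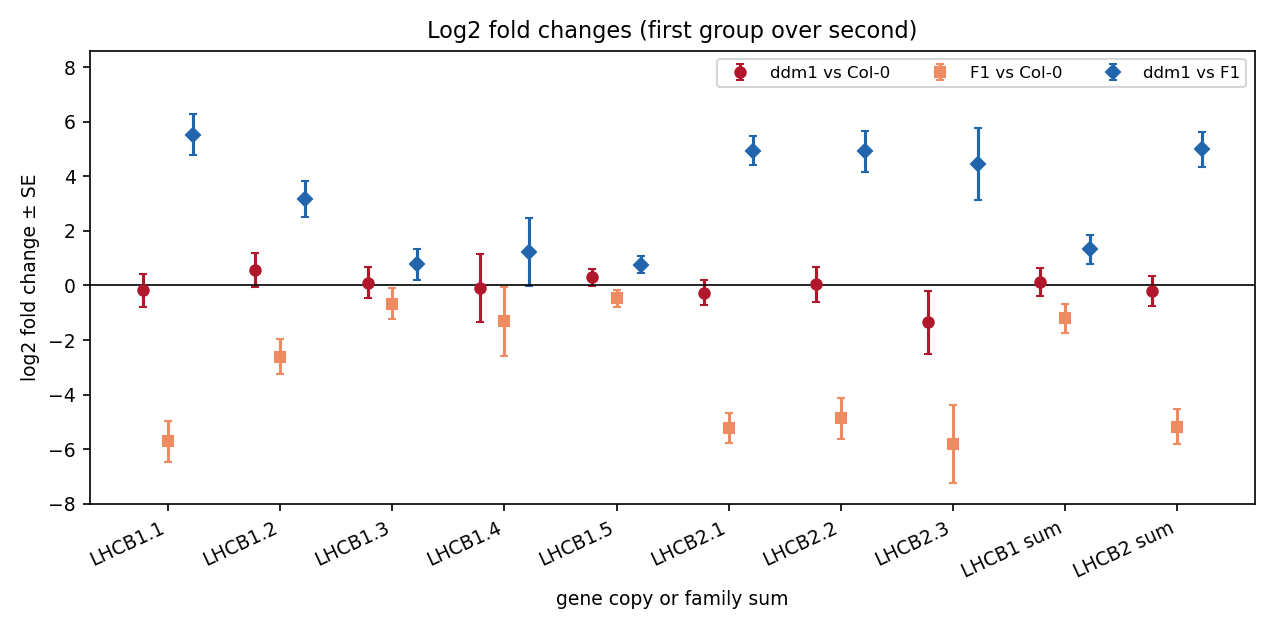
Log2 fold changes of the 8 copies and of the 2 family sums, with bars of 1 SE, in each of the 3 comparisons (first group over second). In F1 over Col-0 the LHCB2 sum lies at -5.17 and the LHCB1 sum at -1.20.

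The balance between the families differed accordingly. The LHCB2 sum divided by the LHCB1 sum, in TPM, was 0.361, 0.342 and 0.343 in ddm1, 0.0240, 0.0207 and 0.0322 in F1 and 0.485, 0.400 and 0.451 in Col-0. The 3 groups did not overlap in this ratio, and the spread within a group was small beside the distance of F1 from the others. The ddm1 libraries lay below the Col-0 libraries as well.

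Within LHCB1, the shares of LHCB1.1, LHCB1.2 and LHCB1.3 in F1 stood apart from those in both other groups. LHCB1.3 supplied 44.5% ± 3.38 of LHCB1 TPM in ddm1, 61.5% ± 3.19 in F1 and 46.2% ± 2.48 in Col-0 (SD, n = 3 each). LHCB1.1 supplied 13.8% ± 4.25 in ddm1, 0.832% ± 0.187 in F1 and 18.8% ± 1.48 in Col-0. LHCB1.3 was therefore 3.36, 4.29 and 2.53 times as abundant as its divergent neighbour LHCB1.1 in ddm1, 58.9, 73.6 and 97.5 times in F1 and 2.44, 2.40 and 2.53 times in Col-0. LHCB1.5 supplied 25.3% ± 9.27 in ddm1, 30.6% ± 5.37 in F1 and 21.2% ± 7.03 in Col-0, and LHCB1.4 supplied 2.91% ± 3.72 in ddm1, 3.97% ± 1.98 in F1 and 4.60% ± 2.19 in Col-0, with overlap in every pair of groups for both. LHCB1.2 supplied 15.4%, 12.8% and 12.4% in ddm1 libraries, 2.34%, 3.42% and 3.72% in F1 and 7.83%, 11.5% and 8.12% in Col-0, so that its share was higher in every ddm1 library than in any Col-0 library.

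Within LHCB2, no copy's share in F1 stood apart from both other groups. LHCB2.1 supplied 50.7% ± 2.04 of LHCB2 TPM in ddm1, 53.9% ± 12.2 in F1 and 53.6% ± 4.78 in Col-0. LHCB2.3 supplied 2.71% ± 2.67 in ddm1, 4.52% ± 1.45 in F1 and 7.20% ± 5.02 in Col-0. The groups overlapped in both shares. LHCB2.2 supplied 45.9%, 48.5% and 45.2% in ddm1 libraries, 37.1%, 33.8% and 53.8% in F1 and 37.9%, 39.5% and 40.3% in Col-0, so that its share was higher in every ddm1 library than in any Col-0 library.

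**Figure D4:**
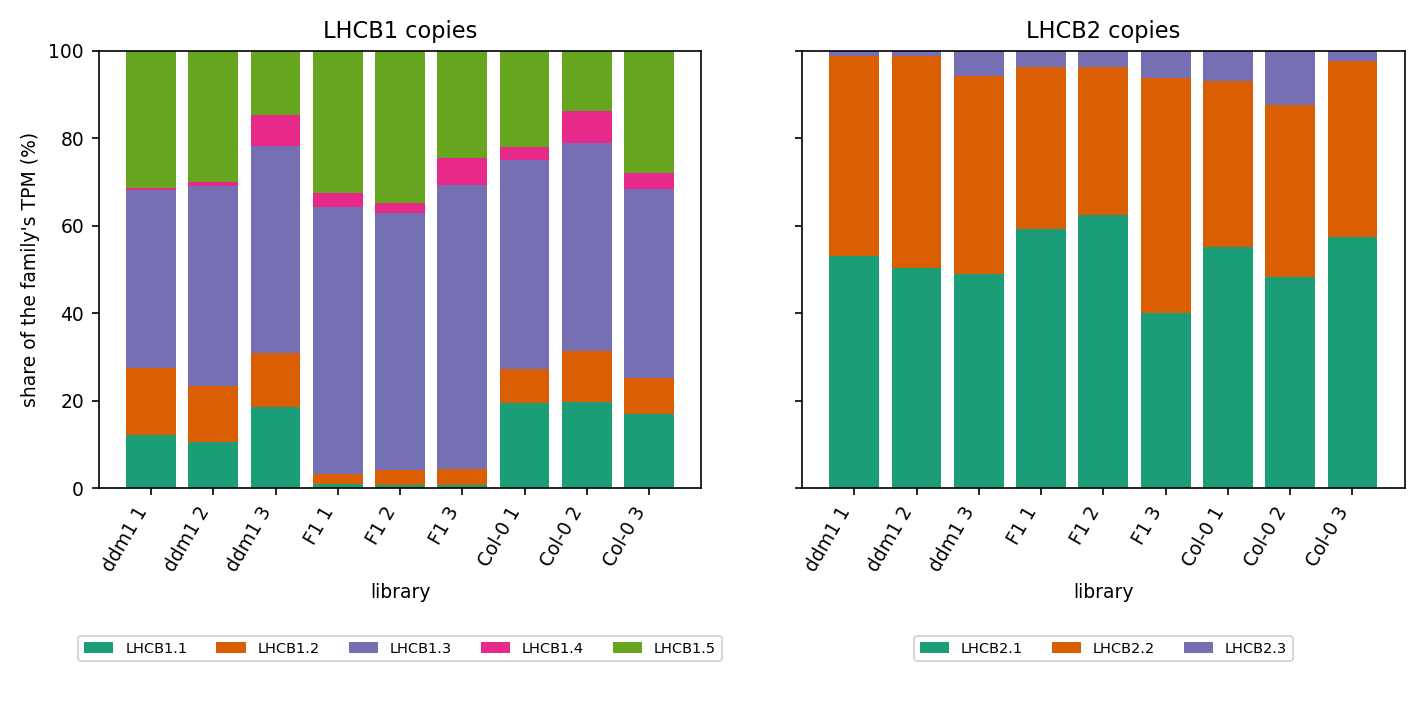
Share of each copy in the summed TPM of LHCB1 (left) and LHCB2 (right), in percent, for each library of ddm1, F1 and Col-0. In F1 libraries LHCB1.1 takes 0.666% to 1.03% of LHCB1 TPM and LHCB1.3 58.6% to 64.9%.

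The copies were also ordered by mean TPM. In ddm1 it ran LHCB1.3, LHCB1.5, LHCB2.1, LHCB2.2, LHCB1.1, LHCB1.2, LHCB1.4 and LHCB2.3, and each copy overlapped the next over its 3 libraries. In F1 it ran LHCB1.3, LHCB1.5, LHCB1.4, LHCB1.2, LHCB2.1, LHCB2.2, LHCB1.1 and LHCB2.3. There LHCB1.5 lay apart from LHCB1.4 below it, and LHCB1.1 apart from LHCB2.3, while the other neighbours overlapped. In Col-0 it ran LHCB1.3, LHCB2.1, LHCB1.1, LHCB1.5, LHCB2.2, LHCB1.2, LHCB1.4 and LHCB2.3, again with overlap of all neighbours.

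Replicate libraries differed in all copies at once. The same library was the highest of its group for all 8 copies in each group, library 3 in ddm1, library 3 in F1 and library 2 in Col-0. The lowest was library 1 in ddm1, library 1 in F1 and library 3 in Col-0, again for all 8. The members took 1.45%, 2.05% and 4.2% of nuclear counts in the ddm1 libraries, 0.519%, 0.800% and 1.43% in F1 and 2.58%, 3.87% and 1.84% in Col-0. The Pearson correlation of a copy with the sum of the other 7 over the 9 libraries, on log2(CPM + 1), ran between 0.657 for LHCB1.4 and 0.942 for LHCB1.2, where the copies share libraries, depth and in part reads.

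The other genes of the light-harvesting system were counted from lists of 51 genes, all of which were tested. Their adjusted p-values come from the same edgeR fit over all tested targets. In F1 against Col-0, 21 of 51 fell and 2 rose, where 9.66% of all tested targets fell and 13.5% rose. In ddm1 against F1, 20 rose and 4 fell, where 10.3% of targets rose and 6.21% fell. In ddm1 against Col-0, 2 fell and 0 rose by edgeR, where 0.500% of targets fell and 6.87% rose. An unadjusted p under 0.05 was reached by 3 and 1 list genes in these directions. The same shares over all targets apply to the count of each list below. Without F1 library 1 the genes called numbered 14 in F1 against Col-0 and 9 in ddm1 against F1, and without F1 library 2 they numbered 14 in ddm1 against F1. In ddm1 against Col-0 they numbered 1 without Col-0 library 2 or 3 and 0 without ddm1 library 1 or 2.

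Among the 13 other antenna genes, 9 fell in F1 against Col-0, by log2 fold changes of -4.89 to -1.34, with a median of -1.72 over all 13. The 9 were LHCB3, the third subunit type of the trimer, LHCB4.2, LHCB5 and LHCB6 of the minor antenna, LHCB7, and LHCA1, LHCA4, LHCA5 and LHCA6 of photosystem I. The same 9 rose in ddm1 against F1, and none passed in ddm1 against Col-0. LHCA5, a minor antenna protein of photosystem I, had 17.4, 16.1 and 17.4 CPM in ddm1, 7.28, 7.22 and 8.88 CPM in F1 and 19.2, 22.7 and 17.3 CPM in Col-0. It fell by 1.34 on the log2 scale in F1 against Col-0 (SE 0.19, adjusted p = 0.000989) and rose by 1.12 in ddm1 against F1 (SE 0.18, adjusted p = 0.00653). LHCB4.2 (CP29), which links the trimers to the photosystem II core, had 312, 421 and 631 CPM in ddm1, 52.2, 80.9 and 124 CPM in F1 and 359, 430 and 247 CPM in Col-0. It rose by 2.41 in ddm1 against F1 (SE 0.41, adjusted p = 0.00752).

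Of 5 proteins related to the antenna but tied to light stress, 4 fell in F1 against Col-0. Of these, ELIP2 was near 0 throughout, at 0.0578, 0 and 0 CPM in F1 and 0.899, 0.464 and 0.168 CPM in Col-0. ELIP1 had 0.751, 0.172 and 0.324 CPM in F1 and 5.84, 8.3 and 24.8 CPM in Col-0. PSBS, which triggers the dissipation of excess light energy as heat, had 389, 254 and 604 CPM in ddm1, 30.1, 22.9 and 55.9 CPM in F1 and 515, 783 and 295 CPM in Col-0. The F1 libraries lay below all others, with a log2 fold change of -3.87 for F1 over Col-0 (SE 0.53, adjusted p = 0.00102) and 3.52 for ddm1 over F1 (SE 0.53, adjusted p = 0.00463). OHP1, a protein with a single membrane helix that is needed for photosystem II assembly, had 19.4, 17.3 and 32.6 CPM in ddm1, 4.51, 3.32 and 8.46 CPM in F1 and 29.0, 33.8 and 22.5 CPM in Col-0. It fell by 2.38 on the log2 scale in F1 against Col-0 (SE 0.39, adjusted p = 0.00262).

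Few genes of the machinery that brings the proteins to the thylakoid passed the test. Of 9 genes for import, targeting and insertion, 2 fell in F1 against Col-0, and the median log2 fold change of the 9 was -0.04. Of the 2 genes of state transitions, STN7, the kinase that phosphorylates LHCII, fell in F1 and TAP38, the phosphatase that reverses it, did not pass. STN7 had 120, 102 and 93.3 CPM in ddm1, 42.7, 38.7 and 36.5 CPM in F1 and 110, 106 and 124 CPM in Col-0. Its log2 fold change was -1.53 for F1 over Col-0 (SE 0.21, adjusted p = 0.000825) and 1.42 for ddm1 over F1 (SE 0.20, adjusted p = 0.004).

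NYC1 and HCAR, which together turn chlorophyll b back to chlorophyll a, rose in F1 leaves. That conversion is the first step in breaking down the antenna, because LHCII binds chlorophyll b. NYC1, the chlorophyll b reductase, had 29.5, 29.2 and 30.5 CPM in ddm1, 219, 313 and 75.7 CPM in F1 and 32.2, 30.5 and 38.8 CPM in Col-0. It rose in F1 against Col-0 (log2 fold change 2.58, SE 0.44, adjusted p = 0.00352) and was lower in ddm1 than in F1, at -2.77 (SE 0.45, adjusted p = 0.00625). HCAR, which carries out the next reduction, had 6.50, 8.79 and 7.83 CPM in ddm1, 20.0, 21.1 and 20.6 CPM in F1 and 6.39, 8.72 and 9.11 CPM in Col-0. Its log2 fold change was 1.35 for F1 over Col-0 (SE 0.21, adjusted p = 0.00173) and -1.42 for ddm1 over F1 (SE 0.21, adjusted p = 0.00429). Of the 8 genes of the chlorophyll b cycle and chlorophyll breakdown, these 2 rose and 1 fell in F1 against Col-0. The 1 that fell was CAO, with a log2 fold change of -2.91 (SE 0.53). NOL, SGR1, SGR2, PPH and PAO did not pass in that comparison.

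**Figure D5:**
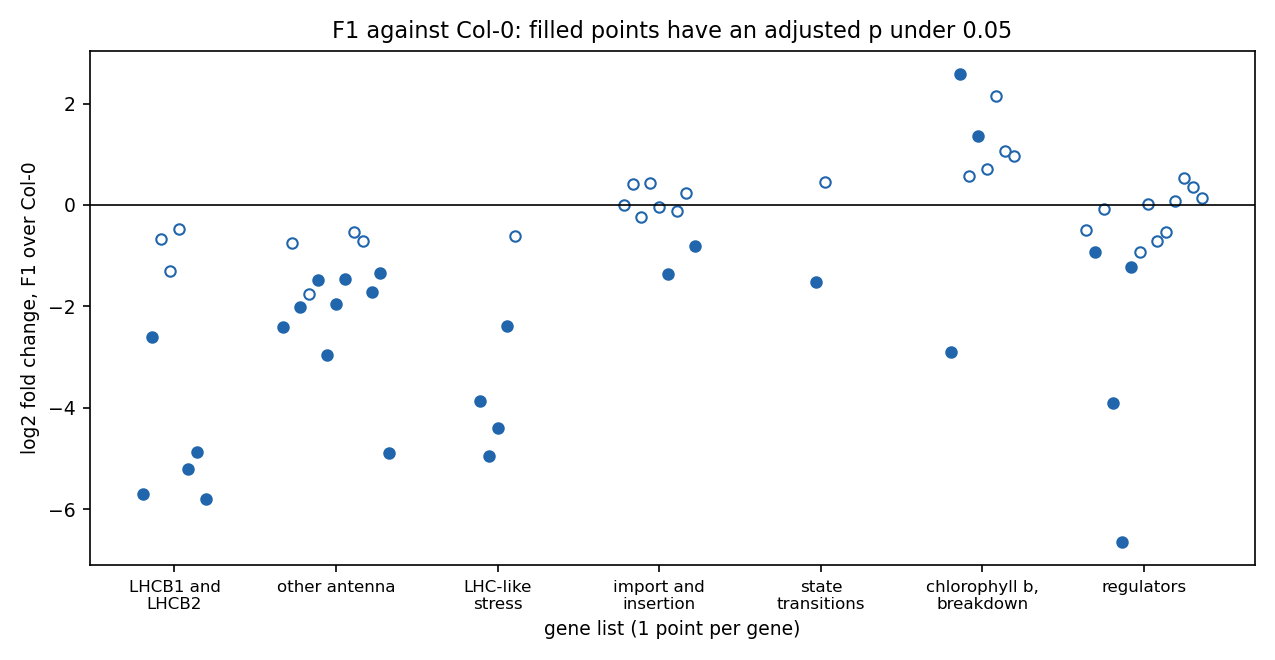
Log2 fold changes of F1 over Col-0 for the 8 LHCB1 and LHCB2 copies and for the genes of 6 lists, 1 point per gene in the order of the list. Filled points have an adjusted p under 0.05 by edgeR over all tested targets. Points of the antenna and light stress lists lie below 0, while those of the import list have a median of -0.04.

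Among 14 regulators of LHCB transcription, 4 fell in F1 against Col-0 and 2 fell in ddm1 against Col-0. In ddm1 against F1, 5 rose and 1 fell. The 4 that fell in F1 were LHY, CCA1, PIF1 (log2 fold change -1.23, SE 0.23) and GLK2 (-0.92, SE 0.23). These 4 and GLK1 rose in ddm1 against F1, and GNL fell. LHY and CCA1, the morning MYB factors of the circadian clock, showed the smallest p-values of the 51 genes in F1 against Col-0. LHY had 71.9, 53.2 and 65.5 CPM in ddm1, 0.636, 1.32 and 0.786 CPM in F1 and 88.2, 88.4 and 98.6 CPM in Col-0. Its log2 fold change was -6.64 for F1 over Col-0 (SE 0.33, adjusted p = 2.54e-06) and 6.11 for ddm1 over F1 (SE 0.32, adjusted p = 7.01e-05). CCA1 had 29.9, 30.0 and 32.5 CPM in ddm1, 3.29, 3.90 and 3.75 CPM in F1 and 46.8, 63.7 and 54.3 CPM in Col-0. All 3 groups stood apart in CCA1, with log2 fold changes of -0.83 for ddm1 over Col-0 (SE 0.18, adjusted p = 0.0188), -3.91 for F1 over Col-0 (SE 0.21, adjusted p = 2.77e-06) and 3.08 for ddm1 over F1 (SE 0.20, adjusted p = 0.000186). GNL, a GATA factor that promotes chloroplast development, had 0.168, 0.286 and 0.270 CPM in ddm1, 3.12, 3.90 and 0.879 CPM in F1 and 1.95, 1.48 and 3.99 CPM in Col-0. It fell by 3.35 on the log2 scale in ddm1 against Col-0 (SE 0.68, adjusted p = 0.0122). The calls of CCA1 and GNL in ddm1 against Col-0 were both lost without ddm1 library 1, without ddm1 library 2 and with a replicate block.

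Other clock and leaf-state genes moved with the low F1 copies. TOC1, an evening repressor of CCA1 and LHY, had 3.44, 4.63 and 4.52 CPM in ddm1, 102, 108 and 81.9 CPM in F1 and 5.24, 3.99 and 5.58 CPM in Col-0. GI, another evening gene, had 25.6, 29.2 and 22.2 CPM in ddm1, 136, 154 and 142 CPM in F1 and 28.6, 27.2 and 42.2 CPM in Col-0. Both were picked after their values were seen. The F1 libraries thus carried low morning and high evening transcripts. The sources used here do not say when each group was harvested, so a difference in harvest time and the F1 genotype cannot be told apart.

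The 4 mesophyll markers (RBCS1A, RCA, GAPA and PSBO1) summed to 4295 to 8066 TPM in ddm1, 1223 to 2033 TPM in F1 and 5464 to 10404 TPM in Col-0, and 3 of the 4 fell in F1 against Col-0. None of the 4 was at 0 in any library. The 5 markers of senescent or dark-kept leaves were SAG12, SAG13, SEN1, ASN1 and ORE1. They summed to 12.1 to 37.7 TPM in ddm1, 200 to 856 TPM in F1 and 33.4 to 113 TPM in Col-0. Most of the F1 sum was SEN1, with a mean of 506 TPM, against 38.1 for ORE1, 25 for ASN1 and 18.4 for SAG13. Of the 4 tested, 1 was called higher in F1 than in Col-0, and 3 were called lower in ddm1 than in F1. The defining senescence protease SAG12 was at 0 in all libraries but Col-0 library 2, which had 0.0928 CPM, while SEN1, a gene induced in the dark, had 4.07, 10.6 and 2.90 CPM in ddm1, 607, 553 and 115 CPM in F1 and 25.8, 5.89 and 32.4 CPM in Col-0 and rose in F1 against Col-0 (log2 fold change 4.32, SE 0.86, adjusted p = 0.00752). F1 library 3, the highest of the F1 libraries in all 8 copies, was the lowest of them in SEN1 and NYC1. The part of these differences in the LHCB values was not tested.

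The genes whose levels were most like the summed LHCB1 and LHCB2 counts were sought among 6458 other targets with a mean of at least 10 CPM, by Pearson correlation of log2(CPM + 1) over the 9 libraries. They were TUB2 (r = 0.985) and TUB6 (r = 0.982), which encode beta-tubulins, AT1G78040 (r = 0.982), KCS1 (r = 0.980), which elongates very-long-chain fatty acids for waxes, and PSBO1 (r = 0.977) of the oxygen-evolving complex. TUB2 averaged 52.8 ± 12.5 CPM in ddm1, 33.2 ± 8.01 CPM in F1 and 51.2 ± 7.82 CPM in Col-0 (SD, n = 3 each). The libraries share depth and normalisation, and the values describe these 9 libraries only.

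Of 8 neighbouring genes with enough counts to be tested, 2 passed in any comparison. CARB, a subunit of carbamoyl phosphate synthetase that lies 69 bases from LHCB1.2, had 90.8, 91.4 and 236 CPM in ddm1, 56.1, 38.6 and 100 CPM in F1 and 85.5, 108 and 113 CPM in Col-0 and did not pass in any comparison. NRPA2, which overlaps the 3' end of LHCB1.3, and RWA3, which overlaps that of LHCB1.5, did not pass either. AT3G27700, which overlaps the 3' end of LHCB2.3, was higher in F1 than in Col-0 (log2 fold change 0.59, SE 0.17, adjusted p = 0.0382), the opposite direction to LHCB2.3. The strand setting of the counting was not given in the sources used here, so reads of overlapping genes may have been mixed. The 4 pseudogenes between LHCB2.2 and LHCB2.1 had 0 to 2 counts in every library. AT2G05110, a pseudogene 3548 bases from LHCB2.1, had 20, 26 and 31 counts in ddm1, 0, 1 and 8 in F1 and 0 in each Col-0 library, and passed in ddm1 against Col-0 (edgeR adjusted p = 0.0209), whereas LHCB2.1 did not.

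The promoters of 4 copies are shown because copies with nearly the same protein stood so far apart in F1. Each is the 150 bases before the annotated transcript start on the gene's own strand, from RefSeq TAIR10.1. Capitals mark matches of the motifs searched that lie wholly within these bases. LHCB1.1 lies at chr1:10475970-10476119 (minus strand), LHCB1.3 at chr1:10477735-10477884 (plus), LHCB1.5 at chr2:14523569-14523718 (minus) and LHCB2.1 at chr2:1824481-1824630 (minus):
LHCB1.1: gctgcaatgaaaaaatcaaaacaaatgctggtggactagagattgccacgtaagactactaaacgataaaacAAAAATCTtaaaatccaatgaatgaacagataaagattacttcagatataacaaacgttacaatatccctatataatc
LHCB1.3: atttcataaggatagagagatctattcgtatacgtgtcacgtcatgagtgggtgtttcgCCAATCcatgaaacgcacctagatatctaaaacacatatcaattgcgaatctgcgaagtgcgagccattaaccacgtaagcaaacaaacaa
LHCB1.5: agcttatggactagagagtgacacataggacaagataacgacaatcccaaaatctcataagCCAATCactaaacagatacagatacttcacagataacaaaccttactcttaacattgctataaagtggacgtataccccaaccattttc
LHCB2.1: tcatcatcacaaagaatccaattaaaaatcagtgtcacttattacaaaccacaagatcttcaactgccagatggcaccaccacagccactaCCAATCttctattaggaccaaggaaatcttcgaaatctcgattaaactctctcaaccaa
Motifs were searched on both strands in the 500 bases before each start codon, which include the leader of the transcript, in 27406 genes. The CCA1 binding motif AAAAATCT stood in 4 of the 8 copies (LHCB1.1, LHCB1.3, LHCB1.4 and LHCB2.3) and in 13.1% of all genes, and its variant AACAATCT in LHCB1.3 and in 4.5% of genes. In LHCB1.1 AAAAATCT lay 155 bases before the start codon, upstream of the 77-base leader. In LHCB1.3 it lay 173 bases before the start codon, within the 186-base leader. The variant AACAATCT of LHCB1.3 began 191 bases before the start codon. It thus crosses the annotated transcript start and is not in capitals above. Whether a match counts as promoter or leader rests on that annotated start. AAAAATCT was not found in this window of LHCB2.1 or LHCB2.2. Its part in the differences between copies was not tested. The evening element AAAATATCT stood in none of the 8 and in 4.0% of genes. The I-box GATAAG stood in LHCB1.3, LHCB1.4, LHCB1.5 and LHCB2.1 and in 23.6% of genes. The G-box CACGTG stood in LHCB2.3 and in 9.2% of genes, and CCAATC, associated with GLK factors, in LHCB1.3, LHCB1.5 and the 3 LHCB2 copies and in 21.3% of genes. No matches overlapped one another in the 8 windows, and a match describes the sequence only.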

How the data were processed

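Per the labels' protocols, leaf RNA of 9 libraries was depleted of ribosomal RNA and sequenced with strand kept, in single reads of 50 bp. The deposited tables held estimated counts and TPM per target that the authors made with kallisto 0.46.0, per the submitters' processing notes, which also name TAIR10, STAR, deepTools, R and DESeq2 1.22.2 without roles. The index and the strand setting were not given in the sources used here. Estimated counts were rounded and fitted over all 9 libraries with edgeR 4.0.16 (TMM, default low-count filter, robust quasi-likelihood F test) in R 4.3.3, with Benjamini-Hochberg adjustment over 18216 targets and a threshold of 0.05. SEs were derived from the F statistic. CPM are counts per 1000000 counts of all tested targets, organelle loci included, after TMM scaling. The fit was also run on simulated data with 200 changed genes. Genes were drawn there independently of one another, unlike the copies here, which differed together between replicate libraries. Sequences, word sharing and motifs came from RefSeq TAIR10.1 through Biopython 1.88. Members, lists and comparisons were chosen with earlier results of these data known. All 8 copies and, per comparison, up to 8 called list genes with the smallest p-values were named. A few other list genes were also named. DESeq2 1.42.0, other scalings, no filter, family sums, a replicate block and each library left out were tried. Depth limits the precision by counting error only where counts are few.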

Additional observations from a re-analysis of the deposited data

How the results depend on the processing

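For the family sums and the counts of calls, 165 alternatives kept the direction and the side of the threshold or, for a count, stayed within 1.5 times, while 13 counts moved further and 5 sums changed sign. With each family as 1 feature, 1 feature was called in F1 against Col-0 and 1 in ddm1 against F1, the LHCB2 sum in both. With 1 library left out, the number of copies called ran from 3 (without F1 library 1 or 2) to 5 in F1 against Col-0 and from 3 to 5 in ddm1 against F1, and it was 0 throughout in ddm1 against Col-0. The number of list genes called ran from 14 (without F1 library 1) to 26 in F1 against Col-0, from 9 (without F1 library 1) to 25 in ddm1 against F1 and from 0 to 2 in ddm1 against Col-0, where it was 1 with only those 2 groups fitted.

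Between ddm1 and Col-0, LHCB1.2 and LHCB1.5 stayed above 0 and LHCB2.3 below it when a library was left out, and the others changed sign. With 1 library left out, the log2 fold change of ddm1 over Col-0 ran from -0.51 to 0.50 for the LHCB1 sum, -0.80 to 0.10 for the LHCB2 sum, -1.27 to 0.24 for LHCB1.1, -0.60 to 0.50 for LHCB1.3, -3.15 to 0.93 for LHCB1.4, -0.85 to 0.01 for LHCB2.1 and -0.54 to 0.34 for LHCB2.2. For ddm1 over F1, LHCB1.4 ran from -1.84 to 2.37. The cause was not tested.

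Whether the replicate numbers pair the samples was not settled. Deviations of same-numbered libraries correlated at 0.143, -0.519 and -0.370 between ddm1 and Col-0 and at -0.082, -0.390 and -0.344 between F1 and Col-0. Between ddm1 and F1 they correlated at 0.072, 0.264 and 0.231. Libraries of different number ranged over -0.331 to 0.524, -0.086 to 0.380 and -0.238 to 0.123 in these 3 comparisons. With a replicate block, 5, 4 and 0 copies were called in F1 against Col-0, ddm1 against F1 and ddm1 against Col-0, and 0 list genes in ddm1 against Col-0. Under the block ddm1 over Col-0 was -0.07 for the LHCB1 sum, -0.15 for LHCB1.3 and -0.28 for LHCB2.2, and 1341 targets in place of 3007 were called in ddm1 against F1. DESeq2 called 6 copies in ddm1 against F1, adding LHCB1.5 and LHCB2.3.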
